A study of Mus musculus with 9 samples.

Results

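Bone morphogenetic protein (BMP) signalling was followed through 10 genes in RNA from whole mouse kidneys at the embryonic stage E15.5: the ligands *Bmp2*, *Bmp4*, *Bmp5* and *Bmp7*, the secreted antagonist *Grem1*, the receptors *Bmpr1a* and *Bmpr2*, and the BMP-responsive genes *Id1*, *Id2* and *Id3*. They were taken by symbol from a table of 24138 loci, in which each of the 10 has a locus of its own. The study compared 3 genotypes with 3 kidneys, and so 3 libraries, each. MUT kidneys were Foxd1GC/+;Ntn1fl/fl and HET kidneys Foxd1GC/+;Ntn1fl/+, so that both carried 1 *Foxd1* allele with an inserted GFP-Cre and could lose both or 1 of the *Ntn1* alleles. WT kidneys were Ntn1fl/fl without Cre, and all 3 genotypes thus carried at least 1 floxed *Ntn1* allele. Cre from the *Foxd1* locus acts in the stromal progenitors and the cells that descend from them, whereas the RNA came from the whole organ. In such RNA, fewer cells of a type and less RNA per cell cannot be told apart.

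BMP ligands are secreted dimers that bring together type I receptors, such as Bmpr1a, and type II receptors, such as Bmpr2. The receptors phosphorylate SMAD1, SMAD5 and SMAD9, which enter the nucleus with SMAD4 and switch on genes such as those of the Id family, whose proteins bind bHLH transcription factors and keep them off DNA. Gremlin 1 binds BMP2, BMP4 and BMP7 outside the cell and blocks them. In the embryonic kidney, Bmp7 sustains nephron progenitors, Bmp4 from the mesenchyme around the ureter shapes budding and ureteric smooth muscle, and Gremlin 1 has to lower BMP activity for the ureteric bud to grow out.

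*Id3* and *Id2* had the highest levels of the 10 genes, and their promoters are shown because these genes are read as reporters of BMP input. RefSeq windows on GRCm38.p6 were found for 7 of the 10 members. The 250 bases upstream of the annotated start are printed 5′ to 3′ on the strand of the gene, with capitals marking GGCGCC, a GC-rich SMAD1/5 core, and GTCTG or its complement CAGAC, a SMAD4-type core, both searched on both strands.

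Id3, chr4:136143572-136143821, plus strand: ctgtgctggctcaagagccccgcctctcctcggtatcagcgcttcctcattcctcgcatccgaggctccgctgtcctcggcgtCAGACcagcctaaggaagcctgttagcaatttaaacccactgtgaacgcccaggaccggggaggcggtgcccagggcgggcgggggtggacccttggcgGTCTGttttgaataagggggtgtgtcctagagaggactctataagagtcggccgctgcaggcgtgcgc
Id2, chr12:25096093-25096342, minus strand: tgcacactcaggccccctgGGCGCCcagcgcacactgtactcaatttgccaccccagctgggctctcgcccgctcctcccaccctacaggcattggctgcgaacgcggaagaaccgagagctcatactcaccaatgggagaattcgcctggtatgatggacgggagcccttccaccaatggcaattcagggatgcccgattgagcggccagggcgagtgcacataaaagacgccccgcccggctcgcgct

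The *Id3* window holds GTCTG or its complement at 2 places and no GGCGCC, and the *Id2* window holds 1 GGCGCC and no GTCTG. Of the 7 member windows, 4 hold GGCGCC and 3 hold GTCTG. Over all 32851 RefSeq windows of this length, 9.59% hold GGCGCC and 42.2% hold GTCTG. These shares are not matched for GC content, which is 62.8 to 78.8% in the 4 member windows with GGCGCC. A match of so few letters is a description of the sequence and not a binding site.

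Levels are given as FPKM, mapped fragments per unit of transcript length and of library size. FPKM summed to between 453753 and 545598 per library. Read numbers are unknown, but the spacing of the lowest values puts WT-2 and MUT-3 at a relative depth of 0.578 and 0.611, with WT-1 set to 1. *Ntn1* was 17.8 to 28.9 FPKM in WT, 12.0 to 16.5 in HET and 10.8 to 16.5 in MUT, so that HET and MUT overlapped. Every gene of the marker lists for stroma, endothelium, ureteric bud and podocytes reached 1 FPKM in all 9 libraries, and so did 6 of 7 for nephron progenitors. HET-2 stood apart: its 8 liver markers summed to 759 FPKM against at most 53.9 in any other library, and its 7 adrenal markers to 16.8 FPKM against at most 1.75. *Gdf2*, which encodes the liver-made ligand BMP9, was 0.306 FPKM in HET-2 and at most 0.00562 in the others. HET-2 also had the highest sum of smooth muscle and ureteric mesenchyme markers, at 197 FPKM. The libraries further differed in length balance, the median log2 deviation of genes with transcripts under 1500 bases minus that of genes over 5000 bases. It was -0.39 in WT-1 and -0.42 in MUT-1, 0.27 in HET-1 and 0.25 in HET-2, and between -0.10 and 0.17 in the other libraries.

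*Bmp7*, the ligand that maintains nephron progenitors, was the most abundant of the 4 ligands and the only tested member whose MUT and HET libraries did not overlap. It lies on chromosome 2 from 172868012 to 172940321 (mm10). The MUT libraries had 30.3, 28.5 and 28.8 FPKM, the HET libraries 26.6, 24.3 and 24.2, and the WT libraries 29.7, 28.7 and 21.1. All 3 MUT kidneys thus lay above all 3 HET kidneys, while WT-1 and WT-2 lay among the MUT kidneys and WT-3 was below every other library. MUT averaged 29.2±0.972 FPKM and HET 25.0±1.33 (mean±s.d., n=3 libraries), which gave a log2 fold change of 0.21 with a standard error of 0.10. It did not pass the test (limma, adjusted p = 0.738, unadjusted p = 0.0559), and an exact permutation test gave p = 0.1, the smallest that 3 libraries against 3 allow. In 9.69% of the 10081 genes tested between MUT and HET the groups did not overlap either, so 1 of 7 tested members is near the background. The stroma markers also summed higher in every MUT library (1123 to 1144 FPKM) than in every HET library (1002 to 1085 FPKM). The nephron progenitor markers overlapped, at 259 to 349 FPKM in MUT and 275 to 315 FPKM in HET. The part of either cell type in the *Bmp7* values was not tested.

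*Bmp4*, the ligand of the ureteric and stromal mesenchyme, was the steadiest ligand across genotypes. Its locus is on chromosome 14 from 46379524 to 46390599. Its level was 16.0, 14.4 and 14.9 FPKM in WT, 14.9, 17.2 and 14.3 in HET and 14.8, 16.2 and 13.6 in MUT. The 3 groups overlapped throughout, and the highest library was HET-2. MUT differed from HET by -0.05 on the log2 scale, with a standard error of 0.11 (limma, adjusted p = 0.908). Without HET-2, which also had the highest sums of smooth muscle and ureteric mesenchyme, liver and adrenal markers, the difference was 0.02. The part of any of these cells in the *Bmp4* values was not tested.

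*Bmp2*, made by the ureteric bud and nephron epithelia, had low levels that were lower in both genotypes with Cre than in WT. It lies on chromosome 2 from 133552159 to 133562896. WT libraries had 4.79, 4.62 and 3.50 FPKM, HET libraries 3.25, 3.19 and 3.24, and MUT libraries 3.13, 3.50 and 2.66. The HET kidneys all lay below the WT kidneys and hardly differed among themselves. MUT against WT was a closer case, since MUT-2 at 3.501 FPKM was next to WT-3 at 3.503, and after median-ratio rescaling or quantile normalization these groups overlapped. The ratio of means was 0.749 for HET and 0.720 for MUT against WT, and the exact permutation p was 0.1 for each. Both ratios use the same WT libraries, and the GFP-Cre allele of *Foxd1* and the loss of *Ntn1* alleles cannot be told apart in them: *Foxd1* itself was 25.8 to 33.7 FPKM in WT, 20.2 to 21.7 in HET and 22.5 to 24.8 in MUT. *Bmp2* was below 5 FPKM and so outside the main test. In limma without a minimum FPKM the log2 fold changes were -0.32 (standard error 0.13, adjusted p = 0.998) and -0.37 (standard error 0.15, adjusted p = 0.9997). Among genes of 0.1 to 5 FPKM, groups did not overlap for 9.11% between HET and WT and 9.32% between MUT and WT. HET and MUT overlapped for *Bmp2*, with an exact permutation p of 0.7.

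*Bmp5*, a ligand of mesenchyme around the ureter and of cartilage, was the lowest of the member ligands and below the minimum of the main test. Its locus spans chromosome 9 from 75775365 to 75899017. WT had 1.04, 0.991 and 1.64 FPKM, HET had 0.996, 1.31 and 2.09, and MUT had 1.40, 1.90 and 1.32. HET-3 was the highest and WT-2 the lowest library, 2.11-fold apart, and all 3 groups overlapped. Exact permutation tests gave p of 0.8 for MUT against HET, 0.3 for MUT against WT and 0.6 for HET against WT.

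The order of the 4 ligands was the same in all 9 libraries. *Bmp7* exceeded *Bmp4* by 1.41 to 2.11 times, *Bmp4* exceeded *Bmp2* by 3.12 to 5.40 times and *Bmp2* exceeded *Bmp5* by 1.55 to 4.66 times in FPKM, which is per length. The ranges of neighbouring ligands over the 9 libraries did not overlap. Of the other ligands, *Bmp3* (6.52 to 9.07 FPKM) stood between *Bmp4* and *Bmp2*, and *Bmp6* lay above *Bmp2* in 5 libraries and below it in 4.

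*Grem1*, the BMP antagonist that permits ureteric budding, was the lowest member, below 0.4 FPKM in every library. It is annotated on chromosome 2 from 113748675 to 113758648. Its level was 0.333, 0.179 and 0.388 FPKM in WT, 0.277, 0.206 and 0.390 in HET and 0.379, 0.388 and 0.344 in MUT. The 3 MUT kidneys were close together while WT and HET each held libraries near 0.2 FPKM, and the groups overlapped. For MUT and HET the exact permutation p was 0.4. At this level a fold on the log2(FPKM + 1) scale understates any difference, and how small a change in *Grem1* could be detected was not tested.

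**Figure D1:**
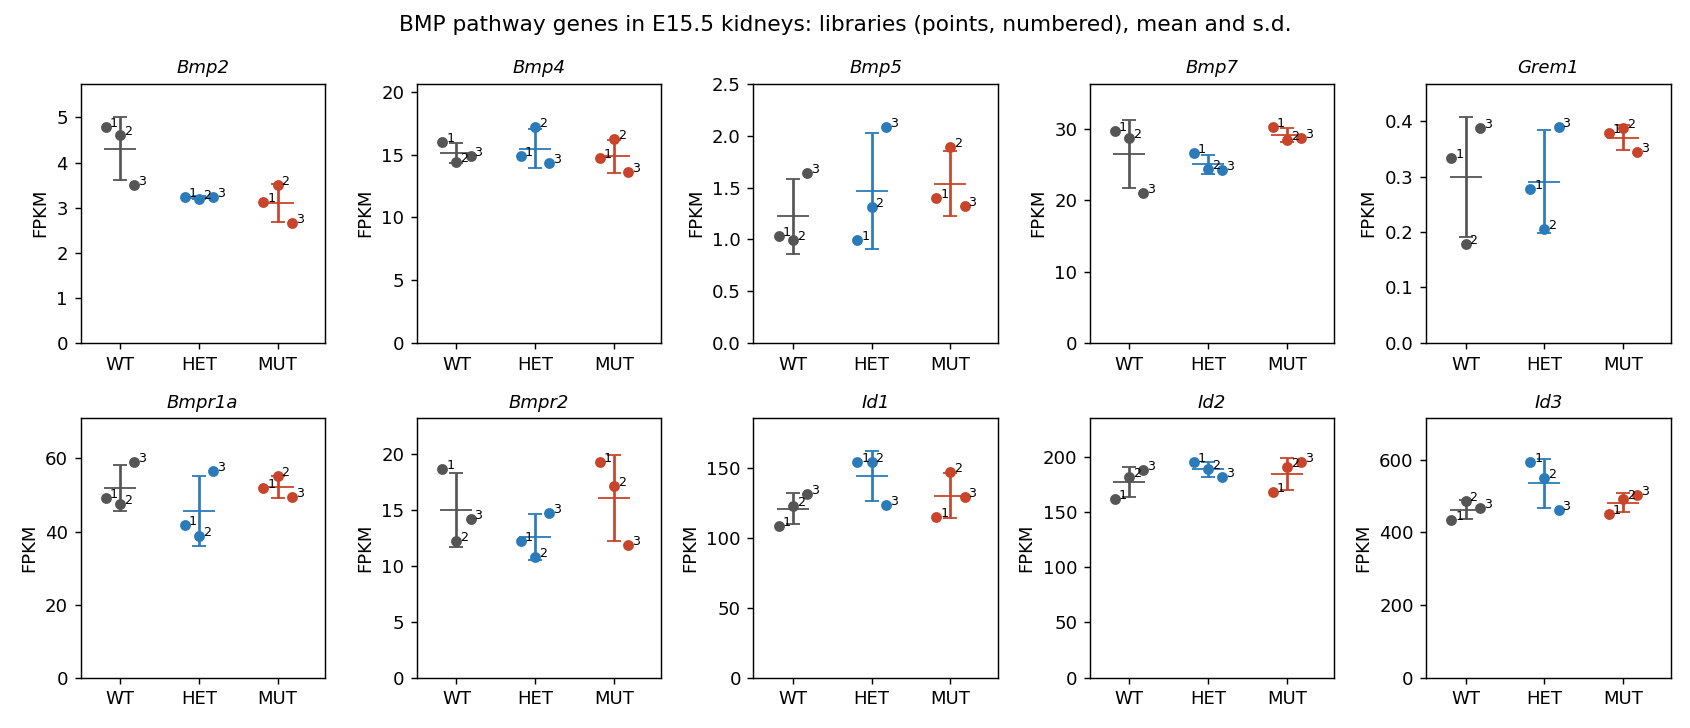
FPKM of the 10 BMP genes (y axes, each from 0) in WT, HET and MUT kidneys (x axes). Points are libraries with their replicate number, and bars give the mean and s.d. of 3 libraries. *Bmp7* is higher in all MUT than in all HET libraries, *Bmp2* is lower in all HET than in all WT libraries, and the 3 Id genes have their lowest values in WT-1.

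*Bmpr2*, the type II receptor, had the largest fold change of the tested members between MUT and HET, and it did not exceed the spread between kidneys. It lies on chromosome 1 from 59764279 to 59878081. MUT had 19.3, 17.1 and 11.8 FPKM, HET had 12.2, 10.8 and 14.7, and WT had 18.6, 12.2 and 14.2. MUT-3 was below HET-1 and HET-3, and WT-1 and MUT-1, the libraries with the most negative length balance, were the highest. The means were 16.1±3.83 FPKM in MUT and 12.6±2.02 in HET, a ratio of 1.28 and a log2 fold change of 0.32 with a standard error of 0.17 (limma, adjusted p = 0.738). Of the tested members, *Bmpr2* alone reached a ratio of 1.2, the fold used in the study, and 12.6% of all tested genes did so in either direction. With the GC content and the length of transcripts both corrected for in each library, an alternative added once the data had been seen, *Bmpr2* differed by 0.13 on the log2 scale. Single libraries moved the value as much: it was 0.18 without MUT-1 and 0.51 without MUT-3. The longest annotated *Bmpr2* transcript has 12.9 kb, and the part of length in its values was not tested further.

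*Bmpr1a*, the type I receptor, was the more abundant of the pair. Its coordinates are chromosome 14 from 34411068 to 34502546. WT libraries had 49.1, 47.5 and 59.1 FPKM, HET libraries 41.7, 38.8 and 56.5, and MUT libraries 51.8, 55.2 and 49.4. HET-1 and HET-2 were the lowest of all, but HET-3 was above every MUT library. The log2 fold change was 0.21 between MUT and HET (standard error 0.14, adjusted p = 0.756 from limma) and 0.01 between MUT and WT (standard error 0.13, adjusted p = 0.9998). The difference between MUT and HET was 0.10 without HET-2, 0.37 without HET-3 and 0.098 with GC content and length corrected for. *Bmpr1a* exceeded *Bmpr2* by 2.63 to 4.18 times in every library.

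*Id3*, *Id2* and *Id1*, the transcriptional output of the pathway among the members, were in this order of FPKM in all 9 libraries. *Id3* occupies chromosome 4 from 136143822 to 136145392. WT libraries had 435, 487 and 466 FPKM of it, against 595, 549 and 462 in HET and 452, 491 and 503 in MUT. HET-1 and HET-2 were above all others, and HET-3 was within the range of both other genotypes. The mean was 535±67.9 FPKM in HET, 482±26.7 in MUT and 463±26.4 in WT.

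*Id1* lies on chromosome 2 from 152736251 to 152737410. It had 109, 123 and 131 FPKM in WT, 154, 155 and 124 in HET and 115, 147 and 129 in MUT. As for *Id3*, HET-1 and HET-2 were the highest and WT-1 the lowest. The log2 fold change between HET and WT was 0.25 with a standard error of 0.14 for *Id1* and 0.20 with a standard error of 0.13 for *Id3* (limma, adjusted p = 0.998 for both), and the exact permutation p was 0.2 and 0.3.

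*Id2*, on chromosome 12 from 25093799 to 25096092, varied least of the 10 genes, 1.21-fold between its lowest and highest library. WT had 162, 181 and 188 FPKM, HET 196, 189 and 181 and MUT 168, 191 and 195. WT-1 and MUT-1 were the lowest, and the groups overlapped.

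Between MUT and HET the log2 fold changes were -0.15 for *Id1* and for *Id3*, with a standard error of 0.14 each, and -0.03 for *Id2* with a standard error of 0.12 (limma, adjusted p = 0.797, 0.797 and 0.952). WT-1 and MUT-1, with the most negative length balance, had the lowest FPKM of *Id1*, *Id2* and *Id3*. HET-1, with the highest balance, was within 1 FPKM of the top for each. Pearson's r with the balance over the 9 libraries was 0.81 for *Id1*, 0.89 for *Id2* and 0.85 for *Id3*. With the smooth muscle and ureteric mesenchyme marker sum it was 0.84, 0.56 and 0.66. With the ureteric bud marker sum it was 0.55, 0.81 and 0.68. In the same order, the nephron progenitor sum gave 0.30, 0.50 and 0.61 and the liver sum 0.58, 0.26 and 0.45. The stroma sum gave -0.21, -0.30 and -0.21, and the endothelium sum -0.26, -0.58 and -0.05. Their longest annotated transcripts have 1.16 kb (*Id1*), 1.97 kb (*Id2*) and 1.28 kb (*Id3*). With the correction for GC content and transcript length, the log2 fold changes between MUT and HET were 0.0045, 0.07 and -0.01 for *Id1*, *Id2* and *Id3*. Those between HET and WT were 0.07, 0.03 and 0.03 in the same order. The part of length balance, or of these cell types, in the Id values was not tested. *Id3* exceeded *Id2* by 2.48 to 3.04 times and *Id2* exceeded *Id1* by 1.22 to 1.51 times, and *Id4*, the family member outside the 10, was below *Id1* by 3.48 to 5.62 times.

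**Figure D2:**
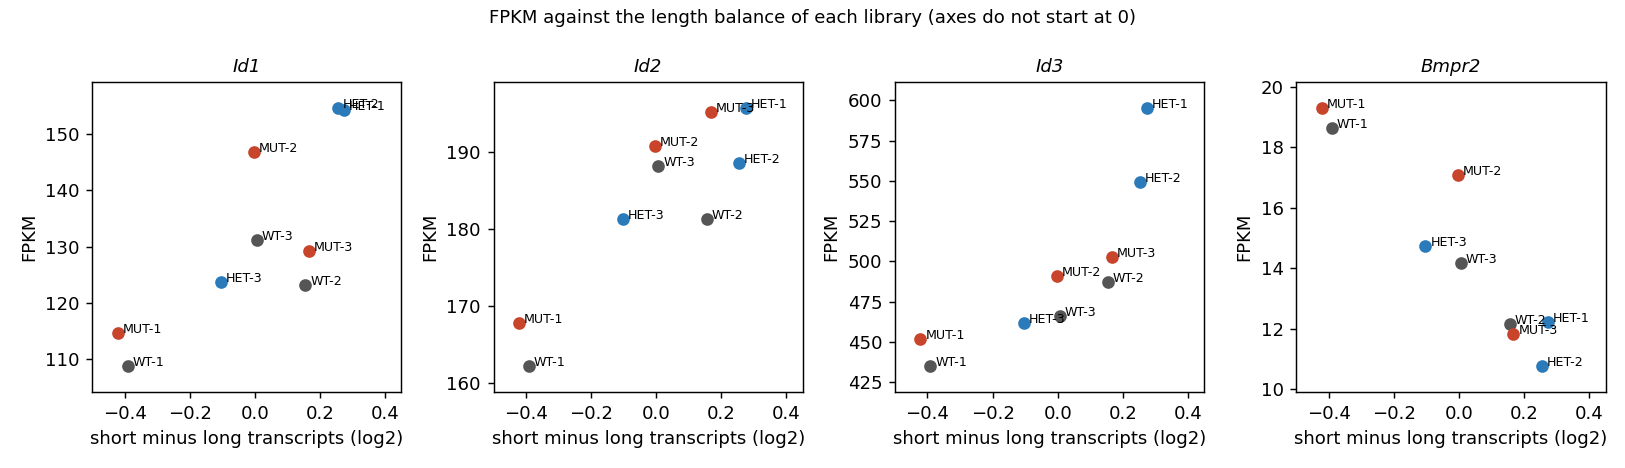
FPKM of *Id1*, *Id2*, *Id3* and *Bmpr2* (y axes, not from 0) against the length balance of each library (x axes, median log2 deviation of short minus long transcripts); each point is a library, coloured by genotype. The Id genes are lowest in WT-1 and MUT-1, at balances of -0.39 and -0.42, where *Bmpr2* is highest.

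Over the members, 7 of 10 passed the minimum of 5 FPKM and none of these passed an adjusted p of 0.05 in any comparison (limma), where 0.0% of all tested genes did so in each comparison. At an unadjusted p under 0.05 there were again 0 of the 7 in each comparison. Over all tested genes, 3.68% were then higher and 2.63% lower between MUT and HET, 0.307% and 0.337% between MUT and WT, and 0.544% and 0.524% between HET and WT. Groups did not overlap for 1 of the 7 between MUT and HET, and for 0 of them between MUT and WT and between HET and WT, against 2.65% and 3.21% of all tested genes. Of the 3 members below the minimum, *Bmp2* alone had groups apart, in the comparisons with WT, and 0 of the 3 had so between MUT and HET, where 11.0% of genes of 0.1 to 5 FPKM did. The members' median log2 fold change was -0.03 between MUT and HET, 0.06 between MUT and WT and 0.03 between HET and WT, against -0.02, -0.0035 and 0.0075 over all tested genes. The sign of 2 of these medians turned: with GC content and transcript length corrected for, they were 0.067 between MUT and HET, with 6 of 7 higher in place of 3, and -0.041 between HET and WT. Between MUT and HET the median was also positive after quantile normalization (0.013), without MUT-1 (0.034), without MUT-3 (0.0048) and without HET-2 (0.021), and between HET and WT it was also negative with the GC correction alone (-0.010) and without HET-2 (-0.044). The precision was limited: the 95% intervals of the 7 genes between MUT and HET ran from 0.727-fold for *Id1* and *Id3* to 1.61-fold for *Bmpr2* on the log2(FPKM + 1) scale. In simulated data for this comparison, 0% of genes changed by 1.2-fold were called and 40% of those changed by 1.5-fold. There, 50 genes were changed at each of 1.2, 1.5, 2 and 4-fold, and the larger changes ease the adjusted threshold. The noise was independent between genes, without the differences in length balance that these libraries share. The smallest adjusted p in the real comparison was 0.738 (limma), so the 40% cannot be carried over to it.

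**Figure D3:**
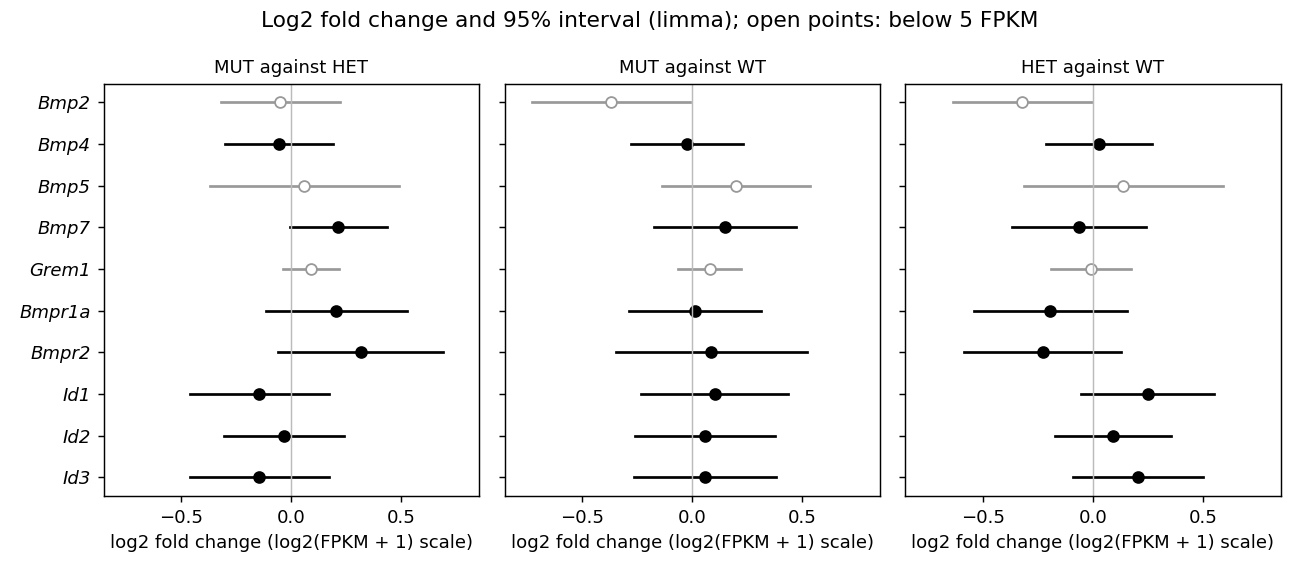
Log2 fold change on the log2(FPKM + 1) scale (x axes) of the 10 BMP genes in 3 comparisons, with 95% intervals from limma. Filled points are the 7 genes tested at 5 FPKM; open points are *Bmp2*, *Bmp5* and *Grem1*, fitted without a minimum. The intervals of all 7 tested genes include 0 in each comparison, and those of *Bmp2* against WT end at -0.01 and -0.0062.

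The rest of the pathway was read from a list of 59 further genes, of which 58 have a locus in the table and 36 passed 5 FPKM in each comparison. None passed an adjusted p of 0.05 in either direction in any comparison (limma). Between MUT and HET, 31 of the 36 were higher in MUT and 5 lower, with a median log2 fold change of 0.12, where 45.9% of all tested genes were higher. The 31 became 26 with the correction for GC content and transcript length, and ranged from 28 to 32 when 1 library was left out. At an unadjusted p under 0.05 there were 4 of 36 higher and 1 lower, against 3.68% and 2.63% of all tested genes. Groups did not overlap for 8 of the 36, 7 of them higher in MUT, against 9.69% of all tested genes in either direction. Between MUT and WT, 29 of 36 were higher, where 48.7% of all tested genes were higher, and the 29 dropped to 21 without MUT-1 or without WT-3. Between HET and WT 9 were higher and 27 lower, where 52.4% of all tested genes were higher. Without WT-1, however, the split was 23 higher and 13 lower.

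The counts by role were not repeated with 1 library left out. All 8 further receptors and coreceptors had a higher mean in MUT than in HET. All 8 were also lower in HET than in WT. Their log2 fold changes between MUT and WT were all above 0, with a median of 0.10. *Rgma*, a BMP coreceptor that is also a guidance cue, was 10.6, 9.46 and 9.97 FPKM in MUT and 7.36, 6.40 and 8.49 in HET. Its groups did not overlap, and the log2 fold change was 0.39 with a standard error of 0.12 (limma, unadjusted p = 0.00878, adjusted p = 0.738). In WT, *Rgma* ranged from 6.73 to 10.9 FPKM, across both other groups. *Acvr2b*, a type II receptor shared with activins, was 8.81, 7.83 and 5.63 FPKM in MUT and 4.08, 3.66 and 7.47 in HET, and the groups overlapped. *Eng*, the endothelial coreceptor, and *Acvr1*, a type I receptor, were the most abundant further receptors over the 9 libraries, at 19.0 to 30.9 FPKM for *Eng* and 10.2 to 14.05 FPKM for *Acvr1*.

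Of the 5 SMAD genes tested, all had a higher mean in MUT than in HET, with a median log2 fold change of 0.11. All 5 were also lower in HET than in WT. Against WT, 3 were higher in MUT and 2 lower, with a median of 0.04. *Smad5*, which carries the BMP signal, and *Smad4*, its common partner, had the highest levels, at 39.9 to 50.7 and 39.7 to 50.0 FPKM. Among 10 intracellular modulators, 8 were higher in MUT, and 4 of these are among the 8 pathway genes without overlap. *Ski*, a corepressor that binds SMAD complexes, was 50.1, 45.1 and 35.0 FPKM in MUT against 32.0, 34.4 and 32.9 in HET. Its log2 fold change was 0.37 with a standard error of 0.14 (limma, unadjusted p = 0.0207, adjusted p = 0.738), and WT-1, at 47.9 FPKM, was among the MUT libraries. *Tob2*, an antiproliferative factor of the family whose member Tob1 restrains BMP SMADs, was 15.1, 12.1 and 13.2 FPKM in MUT and 10.7, 11.7 and 11.2 in HET. *Fkbp1a*, whose protein holds type I receptors inactive, was the most abundant modulator at 224 to 275 FPKM.

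Among 7 secreted modulators tested, 5 were higher in MUT than in HET. *Fstl1*, a secreted glycoprotein that binds BMPs, had 301 to 372 FPKM and *Twsg1*, a chordin cofactor, 55.1 to 81.6 FPKM, both far above *Grem1*. *Nbl1*, a relative of Gremlin 1, was higher in all MUT libraries (13.2 to 15.3 FPKM) than in all WT libraries (8.79 to 12.7 FPKM), with a log2 fold change of 0.32 and a standard error of 0.15 (limma, adjusted p = 0.9998). Of 5 other responsive genes tested, 4 had a higher mean in MUT than in HET, and 4 had a higher mean in MUT than in WT. *Hey1*, a transcription factor that answers to both Notch and BMP, was the exception, lower in MUT with no overlap with either control. It had 29.5, 25.2 and 28.0 FPKM in MUT, 35.0, 35.1 and 31.0 in HET and 32.4, 29.6 and 31.4 in WT. MUT against WT was a close case, with MUT-1 at 29.51 FPKM next to WT-2 at 29.55. The *Hey1* difference was -0.28 on the log2 scale against HET (standard error 0.11, limma unadjusted p = 0.0268, adjusted p = 0.738). Against WT it was -0.17 (standard error 0.12, limma unadjusted p = 0.179, adjusted p = 0.9998). *Ppm1a*, a phosphatase that acts on SMADs, was 33.0 to 34.6 FPKM in HET and 34.8 to 35.7 in WT, a log2 fold change of -0.06. *Id4* had 21.9 to 33.8 FPKM over the 9 libraries.

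**Figure D4:**
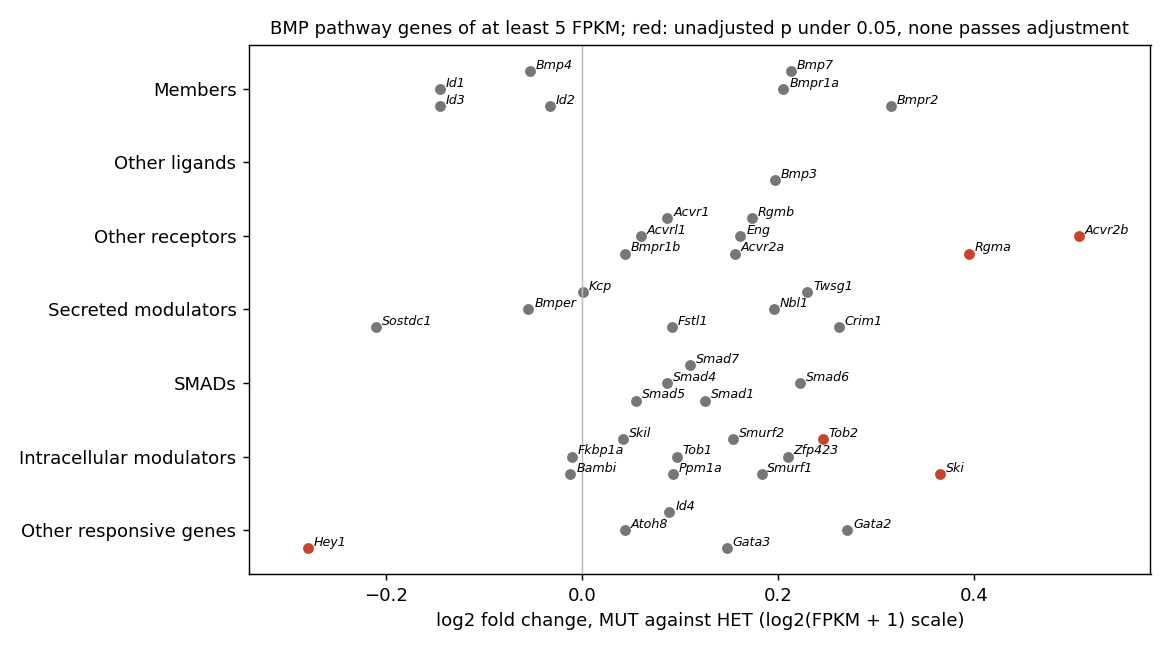
Log2 fold change between MUT and HET (x axis, log2(FPKM + 1) scale) of the 7 members and 36 further BMP pathway genes of at least 5 FPKM, by role (y axis; the height within a row has no meaning). Each point is a gene, red where the unadjusted p from limma is under 0.05; *Rgma*, *Acvr2b*, *Ski* and *Tob2* lie to the right and *Hey1* to the left, and 0 pass the adjusted threshold.

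The genes whose pattern was most like that of a member were found by Pearson's r of log2(FPKM + 1) over the 9 libraries, among genes that averaged 5 FPKM or more. The values describe 9 libraries of 3 genotypes, which share depth and length balance. *Evl* (r = 0.996) and *Pigt* (r = 0.984) were closest to *Bmp7*, and *S1pr1* (r = 0.958) and *Tpm1* (r = 0.947) to *Bmp4*. For the receptors these were *Zfp955b* (r = 0.986) and *Cwf19l2* (r = 0.979) with *Bmpr1a* and *Plekha5* (r = 0.989) with *Bmpr2*, whose next gene is listed under a symbol turned into a date and is left unnamed. *Erp29* (r = 0.976) and *0610012G03Rik* (r = 0.963) were closest to *Id1*, *Osgep* (r = 0.975) and *Ppp1r11* (r = 0.973) to *Id2*, and *Pagr1a* (r = 0.985) and *Armc6* (r = 0.983) to *Id3*. An r over 0.9 was common for most members: it was reached by 261 genes with *Bmpr2*, 249 with *Id2*, 202 with *Bmpr1a* and 159 with *Bmp7*, but by 8 with *Bmp4*.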

How the data were processed

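Stranded mRNA libraries were made from 9 whole kidneys of stage E15.5. For the deposited FPKM the authors used STAR for alignment to mm10, then cufflinks, cuffmerge and CuffDiff; versions and the annotation are not given in the sources used here. FPKM are scaled within a library, and the number of reads is unknown. Locus starts count from 0 and were raised by 1.

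The study's minimum was kept, a group mean of 5 FPKM or more in 1 of the genotypes compared. Values were set to log2(FPKM + 1) and tested by limma 3.58.1 under R 4.3.3 (trend, two-sided, Benjamini-Hochberg over all tested genes, threshold 0.05), with the libraries of the 2 genotypes compared and no replicate block. Members were also compared by two-sided exact permutation tests. The kidneys came from 3 separate crosses, but which kidney came from which cross is not given in the sources used here, so p-values measure the spread between these kidneys. Other tools were Python 3.11.15, numpy 2.4.6, scipy 1.17.1, pandas 2.3.3 and matplotlib 3.10.9. GC content and transcript length came from GENCODE mouse release 21 on GRCm38 (95.87% of loci). The fit was tested on simulated data. Alternatives were other pseudocounts, minimums, scalings and fits, a GC correction and each library left out.

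The members and lists were chosen with earlier results of these data known. Named beside the members were pathway genes with no overlap and the smallest p (3 each way), the 2 most abundant per role and the 2 genes most like each member; *Acvr2b* and *Gdf2* were added after their values were seen. The authors' mean columns were not used.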

Additional observations from a re-analysis of the deposited data

How the results depend on the processing

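Over the alternatives, 0 members and 0 further pathway genes passed the adjusted threshold in any comparison. The number of genes called was 0 under every alternative with all libraries and ranged from 0 to 3 in each comparison when 1 library was left out. With the replicate block, 0 genes passed as well; the study's own tables pair HET and MUT by kidney number, but neither its methods nor the labels say what a number shares. Same-numbered MUT and HET libraries had a mean correlation of deviations of -0.13 (0.09 for MUT and WT, -0.03 for HET and WT), single numbers ranged from -0.31 to 0.55 (the latter number 1 in MUT and WT), and 1 or 2 of 6 libraries correlated best with their own number, so the numbers were not taken as a pairing. The groups of *Bmp2* in MUT and WT, apart in the FPKM as deposited, overlapped after median-ratio rescaling and after quantile normalization, so that 0 members had the smallest exact p. Of the values for single genes, 30 changed sign under an alternative and 564 did not; the cause was not tested. Between MUT and HET, the correction for GC content and length gave 0.051 for *Bmp4*, 0.0045 for *Id1* and 0.067 for *Id2* (log2), and quantile normalization gave 0.013 for *Id2*. Between HET and WT, *Bmp4* was -0.010 with the GC correction and -0.079 with GC content and length, and *Ppm1a* 0.090 with the latter. With 1 library left out, *Bmp4* ran from -0.11 to 0.021 between MUT and HET, from -0.086 to 0.033 between MUT and WT and from -0.046 to 0.079 between HET and WT. *Id2* ran from -0.074 to 0.034 between MUT and HET and from -0.0040 to 0.12 between MUT and WT. Between MUT and WT, *Bmp7* ran from -0.00071 to 0.24, *Bmpr1a* from -0.047 to 0.11 and *Bmpr2* from -0.051 to 0.28; between HET and WT, *Bmp7* ran from -0.21 to 0.024, *Bmp5* from -0.037 to 0.28 and *Grem1* from -0.078 to 0.040. Between MUT and HET, *Bmp2* ran from -0.12 to 0.030 and *Bmp5* from -0.081 to 0.23. Read depth is unknown, and *Bmp5* and *Grem1* lie below the minimum of the main test. How far depth limits statements on them was not tested.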
